A study of Mus musculus with 4 samples.

Results

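The genes described here are the replication-dependent histone genes of the mouse, which encode the linker histone H1 and the core histones H2A, H2B, H3 and H4. They were taken from the array by name: a probe belonged to the group when its RefSeq accession matched a gene named Hist1h, Hist2h, Hist3h or Hist4h, or H2ac, H2bc, H3c, H4c or H1f1 to H1f6 in the newer nomenclature. Of 71 such genes in the RefSeq table, 50 had a probe (54 probes of 56558 on the array), and 44 of these were bright enough to be tested, among 13539 genes tested in all. The 44 comprised 4 of 6 H1 genes, 12 of 21 H2A genes, 12 of 19 H2B genes, 7 of 12 H3 genes and 9 of 13 H4 genes. A further 21 genes had no probe, and 6 had only probes that read too dim: the H1 genes H1f1 and H1f6, the H2A genes H2ac7 and H2ac21, and 2 transcribed pseudogenes. H2aw, H2bu2 and H4f16 belong to the group through their older names Hist3h2a, Hist3h2ba and Hist4h4.

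The RNA came from cultures of S-180, a mouse sarcoma cell line, grown with 10% serum. Cells exposed for 12 h to 20 µM fluoxetine, an antidepressant that blocks serotonin reuptake (fluoxetine 1 and fluoxetine 2), were set against cells kept for 12 h without it (control 1 and control 2), and the labels call the 2 samples of each group biological replicates without saying whether the cultures were separate, so a p-value covers the spread of these samples and may be technical. Each sample was read on 1 single-colour Agilent array, all 4 arrays being on 1 slide and in 1 scan. The spots well above background made up 51.7% and 53.1% of all non-control spots on the fluoxetine arrays and 52.1% and 53.5% on the control arrays, none was saturated, and the number of arrays limits the precision. Arrays of a group lay side by side, so group and slide position cannot be told apart.

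Replication-dependent histone genes supply the proteins that package newly made DNA, and their mRNAs are abundant in S phase and scarce outside it. These genes lie in clusters, have no introns, and give mRNAs that end in a conserved stem-loop in place of a poly(A) tail. NPAT and CASP8AP2 act in their transcription, HINFP binds H4 promoters, and SLBP binds the stem-loop through processing, translation and decay. Replacement variants such as H2A.Z, H3.3 and H1.0 are instead made from ordinary polyadenylated mRNAs throughout the cell cycle. Labelling kits of the kind named in the labels prime on the poly(A) tail, so the form of histone mRNA that each probe read was not tested. Copies of a histone class are nearly identical in sequence and the probe sequences were not used here, so cross-hybridisation between copies was not tested.

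Histone classes carry different promoter motifs, and 6 promoters are shown for this reason: the largest called decrease of H1, of H2A and of H2B, the 2 largest of H4, and H2bc1, a gene called higher. Each is the 250 bases before the gene start in RefSeq (GRCm38.p6), 5′ to 3′ on the gene's strand, and 39 of the 44 tested genes had an entry. Capitals mark 5 motifs searched on both strands: CCAAT, the TATA box TATAAA, the octamer ATTTGCAT, the H1 box AAACACA and GGTCCG, a core of the sites bound by HINFP.
H1f4 (H1, chr13:23622559-23622808, minus strand): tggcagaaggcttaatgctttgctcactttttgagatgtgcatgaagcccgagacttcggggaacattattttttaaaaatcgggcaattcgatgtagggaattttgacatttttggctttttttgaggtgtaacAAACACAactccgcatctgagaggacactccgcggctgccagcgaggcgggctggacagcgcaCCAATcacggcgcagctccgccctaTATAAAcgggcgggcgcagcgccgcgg
H2ac13 (H2A, chr13:21716162-21716411, plus strand): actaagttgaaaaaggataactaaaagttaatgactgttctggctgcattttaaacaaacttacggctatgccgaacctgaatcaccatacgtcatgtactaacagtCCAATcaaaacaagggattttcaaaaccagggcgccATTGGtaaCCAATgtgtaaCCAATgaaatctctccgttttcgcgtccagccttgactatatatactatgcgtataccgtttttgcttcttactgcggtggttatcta
H2bc18 (H2B, chr3:96269450-96269699, plus strand): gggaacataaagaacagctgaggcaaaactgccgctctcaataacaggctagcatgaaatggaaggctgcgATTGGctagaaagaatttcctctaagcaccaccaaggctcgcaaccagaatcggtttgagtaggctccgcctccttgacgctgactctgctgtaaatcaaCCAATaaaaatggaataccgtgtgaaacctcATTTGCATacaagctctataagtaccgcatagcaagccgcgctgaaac
H2bc1 (H2B, chr13:23934157-23934406, minus strand): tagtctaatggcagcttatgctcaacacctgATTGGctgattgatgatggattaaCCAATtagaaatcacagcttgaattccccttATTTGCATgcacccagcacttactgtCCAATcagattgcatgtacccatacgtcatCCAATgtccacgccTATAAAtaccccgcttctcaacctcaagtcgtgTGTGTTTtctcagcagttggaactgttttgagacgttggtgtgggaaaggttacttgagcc
H4f16 (H4, chr6:136804432-136804681, minus strand): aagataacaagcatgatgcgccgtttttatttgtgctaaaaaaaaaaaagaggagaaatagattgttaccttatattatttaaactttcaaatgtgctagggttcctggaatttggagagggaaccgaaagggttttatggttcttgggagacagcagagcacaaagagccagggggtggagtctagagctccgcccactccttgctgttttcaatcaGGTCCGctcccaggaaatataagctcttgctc
H4c17 (H4, chr13:21811496-21811745, plus strand): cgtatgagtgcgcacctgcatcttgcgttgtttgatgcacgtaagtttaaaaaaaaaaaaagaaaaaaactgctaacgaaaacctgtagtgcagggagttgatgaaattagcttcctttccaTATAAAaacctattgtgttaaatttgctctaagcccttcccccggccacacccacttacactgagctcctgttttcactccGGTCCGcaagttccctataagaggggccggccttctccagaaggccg
In these 6 promoters no base belonged to more than 1 motif.

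The motifs differed in frequency between histone classes. CCAAT lay in 33 of the 39 promoters (84.6%), against 33.8% of all 32851 promoters of the same length in the table, and the 6 without it were all H4 promoters. GGTCCG lay in 7 of 8 H4 promoters and in 1 of 5 H3 promoters, against 6.72% of all promoters. The octamer was found in 5 of 12 H2A and 4 of 10 H2B promoters and in no H1, H3 or H4 promoter (1.6% of all promoters). The H1 box was found in 4 of 4 H1 promoters and also in 2 of 12 H2A and 2 of 10 H2B promoters, H2bc1 among them (6.25% of all promoters), and TATAAA in 19 of 39 (12.4% of all promoters). The windows of the neighbours H2ac1 and H2bc1 overlap, so their H1 box and octamer are the same sites, counted in both classes. The windows of H2ac15 and H2bc15, of H2ac22 and H2bc22, and of H2ac23 and H2bc23 overlap as well. In H1f4 the TATA box ended 21 bases before the gene start and the H1 box 108 bases before it, while GGTCCG ended 26 bases before the start in H4f16 and 41 bases before it in H4c17. A match of letters describes the sequence and is not a measured binding site.

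Across the 44 tested genes, histone mRNA signal was mostly lower after fluoxetine. Limma called 15 genes lower (Benjamini-Hochberg adjusted p under 0.05 over all genes tested) and 2 higher, and 27 were not called. Of all 13539 genes, 27% were called, 10.2% lower and 16.8% higher. The change was below 0 in 33 histone genes of 44, against 44.3% of all genes. In 30 histone genes both fluoxetine arrays read below both control arrays, in 7 both read above, and in 7 the groups overlapped; over all genes the groups did not overlap in 30.9% (lower) and 41.6% (higher). The median log2 change was −0.29 in the histone genes and 0.06 over all genes. Of the 15 decreases called, 5 were of 1.5-fold or more. The arrays read RNA from whole cultures, so fewer cells in S phase and less histone mRNA per cell cannot be told apart.

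The calls rested on having all 4 arrays. Without control 1, 3 histone genes were called, without control 2, 9 were, and without fluoxetine 1 or without fluoxetine 2, 0 were, as was the case for all genes without either fluoxetine array (limma; 17 histone genes lower at an unadjusted p under 0.05 without fluoxetine 1 and 15 without fluoxetine 2). Scaling each array by its median in place of its 75th percentile moved the median change of all genes to 0.27 and that of the histone genes to −0.078, and the calls were then 8 lower and 6 higher, against 15 and 2. This change of scaling shifts every gene by the same amount, so the histone median stands at −0.35 relative to that of all genes by construction. The decreases of H1f4, H2aw, H2bc14, H2bc23, H3c11, H4c11 and H4c12 were not called under median scaling. Median scaling added calls of higher signal in H2bc6, H2bc22, H3c13 and H3c8. Of the 44 genes, 43 were well above background on all 4 arrays, and H3c1 passed the filter through the control arrays.

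**Figure D1:**
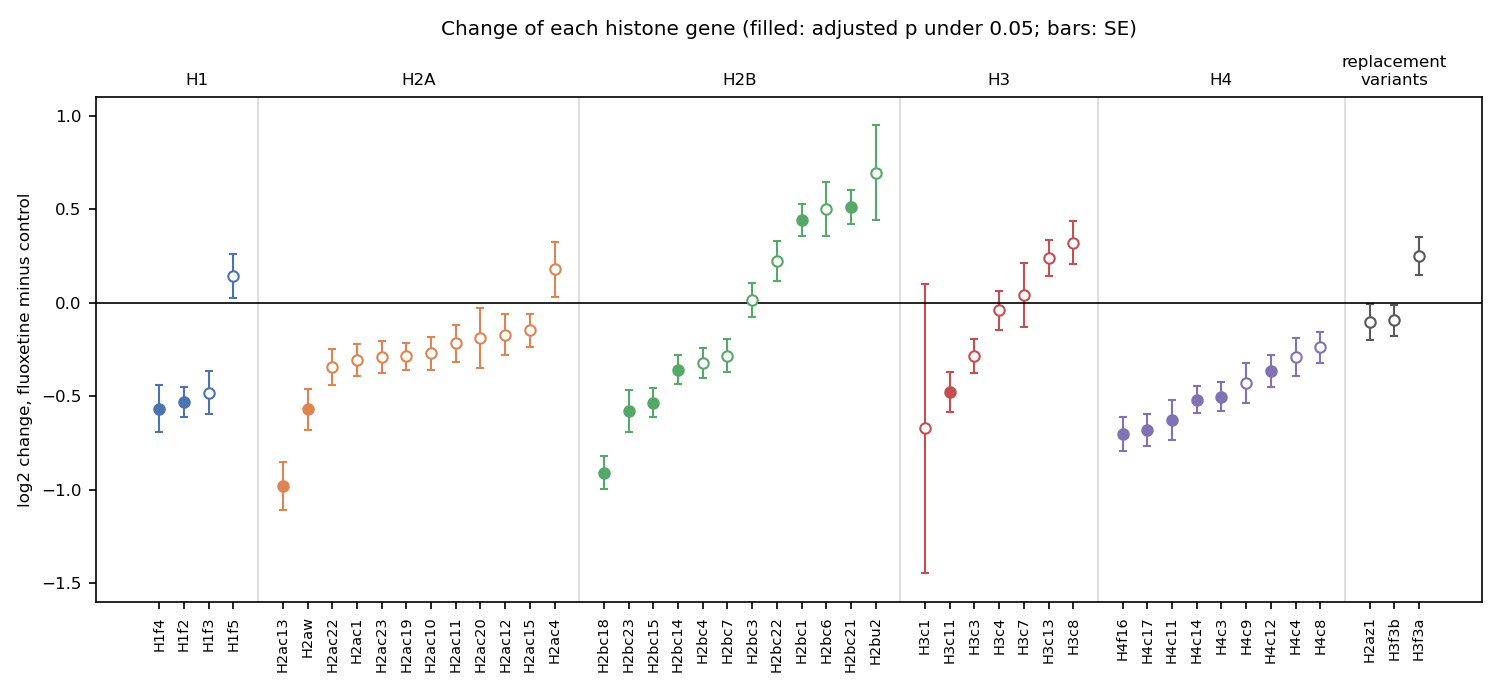
Log2 change (fluoxetine minus control) of each tested histone gene by class and of the replacement variants H3f3a, H3f3b and H2az1, with bars for the standard error and filled points for adjusted p under 0.05. All 9 H4 points lie below 0, from −0.70 to −0.24, while H2B points run from −0.91 to 0.70; H1f0, which has only a bound, is not drawn.

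The linker histone genes H1f4 and H1f2, whose products bind the DNA that enters and leaves the nucleosome, fell. H1f4 (Hist1h1e) read 1.66 and 1.88 on the fluoxetine arrays, against 2.43 and 2.24 on the control arrays, as log2 intensity relative to the array's 75th percentile, the scale of all levels below. The change was −0.57 ± 0.13 (log2, SE, n = 2 arrays per group, limma adjusted p = 0.042; 0.051 with each probe tested by itself), a 1.48-fold decrease. H1f2 (Hist1h1c) read 1.19 and 1.29 with fluoxetine, against 1.79 and 1.76 in control cells, a change of −0.53 ± 0.08 (limma adjusted p = 0.022). In both genes the fluoxetine arrays lay below the control arrays without overlap, with the gap between groups wider than the gap within either group. H1f3 (Hist1h1d) had a change of the same direction, −0.48 ± 0.12, that just missed the threshold (limma adjusted p = 0.0503). H1f5 (Hist1h1b) read 1.24 and 1.50 with fluoxetine, against 1.28 and 1.18 in control cells, so its groups overlapped (0.14 ± 0.12, limma adjusted p = 0.41). Of the 4 H1 genes, 2 were called lower (50%, against 10.2% of all genes), and the median change was −0.51.

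Of 12 H2A genes, 11 had a change below 0 (8 when arrays were scaled by their medians), and 2 fell past the threshold. The share called lower was 16.7%, against 10.2% of all genes. H2ac13 (Hist1h2ai) had the largest change of all 44 genes: −1.66 and −1.67 with fluoxetine, against −0.53 and −0.84 in control cells. That is a change of −0.98 ± 0.13 (limma adjusted p = 0.018), a 1.98-fold decrease, and the 2 fluoxetine values were nearly equal. H2aw (Hist3h2a) read 3.07 and 3.10 with fluoxetine, against 3.78 and 3.53 in control cells, and fell by 0.57 ± 0.11 (log2, limma adjusted p = 0.034). Groups did not overlap in either gene.

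The other 10 H2A genes, which include the testis gene H2ac1, had changes from −0.34 to 0.18 and none passed the test. The lowest of them were H2ac22 (−0.34), H2ac1 (−0.31), H2ac23 (−0.29), H2ac19 (−0.29) and H2ac10 (−0.27). H2ac11 changed by −0.22, H2ac20 by −0.19, H2ac12 by −0.17 and H2ac15 by −0.15, and H2ac4 by 0.18. Of the 10, 8 had both fluoxetine arrays below both control arrays, and H2ac20 and H2ac4 overlapped. Apart from H2ac4, all of them read 5.71 or more on every array, brighter than H2ac13 and H2aw. The median change of the class was −0.28, and the uncalled gene nearest the threshold was H2ac19 (limma adjusted p = 0.055).

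H2B was the class with calls in both directions: 4 of 12 genes fell, 2 rose and 6 were not called. The shares were 33.3% lower and 16.7% higher, against 10.2% and 16.8% of all genes, so the share called higher was near that of all genes. H2bc18 (Hist2h2bb) read −1.25 and −1.15 with fluoxetine, against −0.35 and −0.24 in control cells, a change of −0.91 ± 0.09 (limma adjusted p = 0.013) and a 1.88-fold decrease. H2bc23 (Hist1h2bq) read −1.84 and −1.77 with fluoxetine, against −1.11 and −1.34 in control cells (−0.58 ± 0.11, limma adjusted p = 0.033; 0.052 with quantile normalization and 0.063 with normexp). Both genes encode core H2B, and their groups were well apart. H2bc15 (Hist1h2bn) read 2.59 and 2.65 with fluoxetine, against 3.19 and 3.13 in control cells (−0.53 ± 0.08, limma adjusted p = 0.020). H2bc14 (Hist1h2bm) read 3.78 and 3.74 with fluoxetine, against 4.16 and 4.08 in control cells (−0.36 ± 0.08, limma adjusted p = 0.041; 0.053 with each probe tested by itself). These 2 core H2B genes also showed no overlap, with within-group gaps under 0.1.

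The 2 H2B genes that rose were H2bc1 and H2bc21. H2bc1 (Hist1h2ba), which encodes the H2B variant of the testis, read 3.58 and 3.44 with fluoxetine, against 3.06 and 3.08 in control cells, a change of 0.44 ± 0.09 (limma adjusted p = 0.034). H2bc21 (Hist2h2be) read 2.49 and 2.50 with fluoxetine, against 1.91 and 2.06 in control cells, a change of 0.51 ± 0.09 (limma adjusted p = 0.028). Every fluoxetine value of both genes lay above every control value. A second probe of H2bc21 also rose, by 0.79 on the log2 scale when each probe was tested by itself (limma adjusted p = 0.025).

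Of the 6 H2B genes not called, H2bu2 had the largest change, with −2.50 and −1.80 with fluoxetine, against −2.83 and −2.86 in control cells (0.70 ± 0.25, limma adjusted p = 0.115). Its groups did not overlap, but fluoxetine 1 and fluoxetine 2 stood 0.70 apart, and the change was 1.04 without fluoxetine 1 and 0.35 without fluoxetine 2. H2bc6 changed by 0.50 (limma adjusted p = 0.071) and H2bc22 by 0.22, and both were called higher under median scaling. H2bc4 changed by −0.32 (limma adjusted p = 0.053), H2bc7 by −0.28 and H2bc3 by 0.01. With quantile normalization and with the filter on all 4 arrays, H2bc6 was called higher and H2bc4 lower. An intensity trend also gave a call of H2bc4 as lower. The median of the class was −0.14, and it was 0.08 when arrays were scaled by their medians.

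Of the 7 H3 genes, 1 was called lower (14.3%, near the 10.2% of all genes), and the others lay on both sides of 0. H3c11 (Hist1h3i) read −1.69 and −1.50 with fluoxetine, against −1.05 and −1.18 in control cells, and fell by 0.48 ± 0.11 (log2, limma adjusted p = 0.044) without overlap. This call was lost with quantile normalization (limma adjusted p = 0.064) and with each probe tested by itself (0.054). H3c1 (Hist1h3a) had the largest change, −0.67 ± 0.77, but read −4.90 and −2.76 with fluoxetine, against −2.91 and −3.41 in control cells (limma adjusted p = 0.54). The fluoxetine 1 value was not well above background, the groups overlapped, and the change was 0.40 without fluoxetine 1 and −1.74 without fluoxetine 2. The remaining genes had changes of −0.29 (H3c3), −0.04 (H3c4), 0.04 (H3c7), 0.24 (H3c13) and 0.32 (H3c8), none of them called. Under median scaling H3c13 and H3c8 were called higher, and with an intensity trend H3c3 was called lower. The class median, −0.04, was 0.17 under median scaling and 0.06 without fluoxetine 2, so no direction is given for it.

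H4 genes, whose many copies encode the same core histone, moved in the same direction throughout: all 9 were lower with fluoxetine, all 9 without overlap, and 6 were called. The share called lower was 66.7%, against 10.2% of all genes. H4f16 (Hist4h4), which lies alone outside the large clusters, read 2.29 and 2.18 with fluoxetine, against 2.998 and 2.88 in control cells (−0.70 ± 0.09, limma adjusted p = 0.017), a 1.63-fold decrease. H4c17 (Hist1h4m) read 0.37 and 0.34 with fluoxetine, against 0.97 and 1.11 in control cells (−0.68 ± 0.09, limma adjusted p = 0.018). GGTCCG lay near the gene start in the promoters of both, as in 7 of 8 H4 promoters, those of uncalled genes among them. H4c11 (Hist1h4j) read −0.23 and −0.06 with fluoxetine, against 0.56 and 0.41 in control cells (−0.63 ± 0.11, limma adjusted p = 0.027). H4c14 (Hist2h4) read 4.55 on both fluoxetine arrays, against 5.05 and 5.09 on the control arrays (−0.52 ± 0.07, limma adjusted p = 0.020). In all 4 genes the gap between groups was wider than the gap within either group.

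H4c3 (Hist1h4c) read −0.09 and −0.14 with fluoxetine, against 0.35 and 0.42 in control cells (−0.50 ± 0.08, limma adjusted p = 0.023). H4c12 (Hist1h4k) read 5.56 and 5.46 with fluoxetine, against 5.84 and 5.92 in control cells (−0.37 ± 0.08, limma adjusted p = 0.045). Its call, too, was lost when each probe was tested by itself (limma adjusted p = 0.058), where 13% of kept probes were called lower. H4c9 (−0.43, limma adjusted p = 0.054), H4c4 (−0.29) and H4c8 (−0.24) were not called. The class median was −0.50 and stayed below 0 in every alternative, the least negative value being −0.29, under median scaling.

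H4c12 and H4c4 each had a second kept probe, and in both genes it was dimmer and showed the larger decrease. The second probe read 1.75 and 1.81 with fluoxetine in H4c12 and 3.86 and 3.80 in H4c4. The probes that stand for the genes read 5.56 and 5.46 in H4c12 and 6.57 and 6.43 in H4c4. The part of probe brightness in the size of a change was not tested. In H4c12 the second probe changed by −0.65 (limma adjusted p = 0.020 in the fit of each probe by itself), against −0.37 for the probe that stands for the gene. In H4c4 the values were −0.60 (limma adjusted p = 0.022) and −0.29 (limma adjusted p = 0.124). Together with H2bc21, these were the 3 histone genes with 2 kept probes, and in each the probes moved in the same direction.

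**Figure D2:**
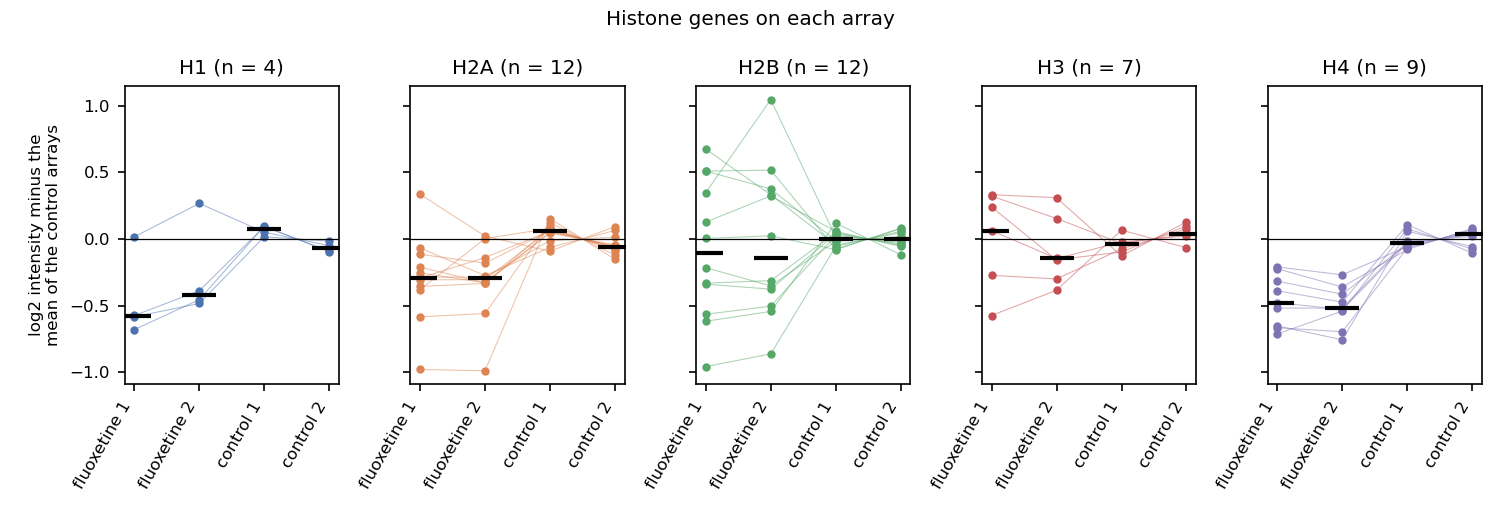
Log2 intensity of each tested histone gene on every array, from fluoxetine 1 to control 2, minus the mean of its control arrays, by class, with a line for the class median; n is the number of genes, and H3c1 enters the H3 median but its points lie off the scale and are not drawn. The H4 medians are −0.48 and −0.52 on the fluoxetine arrays and −0.03 and 0.03 on the control arrays.

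On the scale of that plot, the median of the H1 genes was −0.58 on fluoxetine 1 and −0.42 on fluoxetine 2, against 0.07 and −0.07 on control 1 and control 2. For H2A genes the medians were −0.29 and −0.30 with fluoxetine, against 0.06 and −0.06 in control cells. For H2B genes they were −0.11 and −0.14 with fluoxetine, against 0.00 and 0.00 in control cells. The fluoxetine medians of H1, H2A, H2B and H4 were thus below both control medians, although the median H2B change was 0.08 under median scaling. For H3 genes they were 0.06 and −0.15 with fluoxetine, against −0.03 and 0.03 in control cells, and overlapped. Over all genes tested they were 0.08 and 0.04 with fluoxetine, against −0.03 and 0.03 in control cells. Differences between the classes were not tested.

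Genes of the large cluster, Hist1, made up 35 of the 44 (median −0.29). Of the Hist1 genes, 11 fell (31.4%) and 1 rose (2.86%), against 10.2% and 16.8% of all genes. Of the 6 Hist2 genes, 2 fell (33.3%) and 1 rose (16.7%, near the share of all genes), with a median of −0.24. Of the 2 Hist3 genes 1 fell, and the Hist4 gene fell. Both directions were seen within a cluster and between neighbours. An H2A and an H2B gene often lie head to head and share the stretch between their starts, and 5 such pairs with both genes tested lay within 1000 bases of each other.

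**Figure D3:**
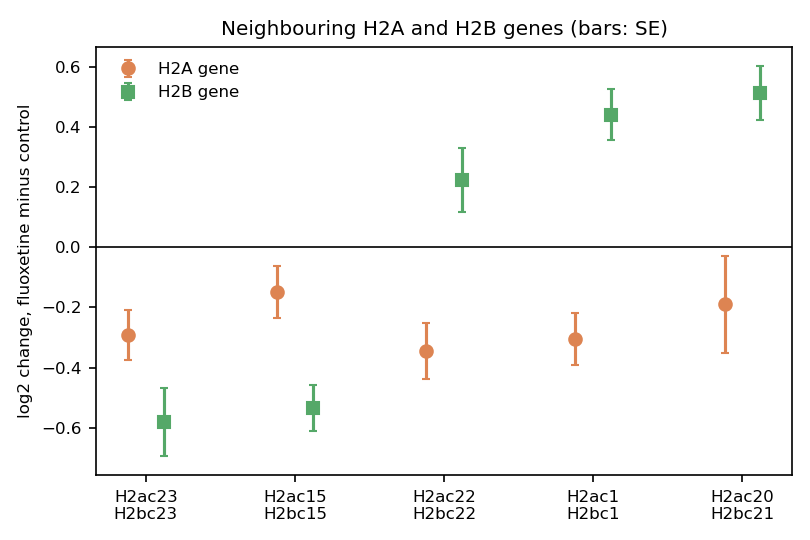
Log2 change (fluoxetine minus control) of the H2A gene (circles) and the H2B gene (squares) in 5 neighbouring pairs, with bars for the standard error. The H2A changes span −0.34 to −0.15, while the H2B changes span −0.58 to 0.51.

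The gaps between the genes of a pair were 163 to 280 bases. In the testis pair, H2bc1 rose by 0.44 while H2ac1 changed by −0.31 and was not called (limma adjusted p = 0.070). H2ac1 read 6.58 and 6.59 with fluoxetine, against 6.96 and 6.82 in control cells, above H2bc1 on every array. Whether its probe also read other H2A copies was not tested. H2bc21 rose by 0.51 and its neighbour H2ac20 changed by −0.19, not called. H2bc15 fell by 0.53 beside H2ac15 at −0.15, and H2bc23 fell by 0.58 beside H2ac23 at −0.29, both H2A genes uncalled. H2ac22 (−0.34) and H2bc22 (0.22) were both uncalled. The difference within a pair was not tested.

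Among the 39 genes with a promoter, GGTCCG lay in 6 of the 14 called lower and in 2 of the 25 others, and CCAAT in 10 of 14 against 23 of 25. These shares carry the class of the genes with them, since H4 supplied most of the GGTCCG matches and all of the genes without CCAAT. The octamer lay in 3 of the 14 genes called lower and in 6 of the 25 others.

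Of the 4 replacement variants, 0 were called by limma, against 27% of all genes. H1f0 alone passed an unadjusted p under 0.05 (44% of all genes did), with control values not well above background. H2az1 (H2afz), which encodes H2A.Z, read 6.99 and 6.84 with fluoxetine, against 6.97 and 7.07 in control cells (−0.10 ± 0.10, limma adjusted p = 0.45). H3f3a, an H3.3 gene, read 6.34 and 6.35 with fluoxetine, against 5.99 and 6.20 in control cells (0.25 ± 0.10, limma adjusted p = 0.14), and its 2 other kept probes moved the other way. H3f3b, the other H3.3 gene, read 6.52 and 6.41 with fluoxetine, against 6.57 and 6.56 in control cells (−0.10 ± 0.08, limma adjusted p = 0.41). Groups overlapped in H2az1, were apart in H3f3a and lay close together in H3f3b.

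H1f0, which encodes the linker histone H1.0 of resting cells, read −2.17 and −4.25 with fluoxetine, against −6.35 and −4.93 in control cells. It was well above background on both fluoxetine arrays and not well above background on either control array. Against the lowest signal that was well above background it was at least 2.32-fold higher with fluoxetine, with limma adjusted p = 0.113, so it was not called. The bound was at least 1.13-fold without fluoxetine 1 and at least 4.77-fold without fluoxetine 2.

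Of 8 further variants, 6 were tested and 0 were called by limma, against 27% of all genes. At an unadjusted p under 0.05, 1 of the 6 passed, against 44% of all genes. H2ax, the variant phosphorylated at DNA breaks, changed by −0.07, and H2aj by −0.10. The macroH2A genes Macroh2a1 and Macroh2a2 changed by −0.02 and 0.45, H2az2, a second H2A.Z gene, by 0.17, and Cenpa, the H3 variant of centromeres, by 0.17. H1f10 was too dim and H3f3c had no probe. Whether the variants differed from the replication-dependent genes was not tested.

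Of 19 genes tested that make and process histone mRNA, 2 fell (10.5%) and 4 rose (21.1%), shares near the 10.2% and 16.8% of all genes, with a median change of 0.04 against 0.06 over all genes. Npat, the coactivator of histone gene transcription, read −0.18 and −0.20 with fluoxetine, against 0.86 and 0.21 in control cells, a change of −0.72 ± 0.24 that was not called (limma adjusted p = 0.093). Its fluoxetine values lay below both control values, and the control values stood far apart. Casp8ap2 changed by −0.38 (limma adjusted p = 0.053, with a second probe of opposite direction), Slbp by −0.12 and Hinfp by 0.09, none called. The genes that fell were Cstf2 (−0.38), a cleavage factor gene, and Coil (−0.33), which encodes the Cajal body protein coilin, and neither was called under median scaling. The genes that rose were Lsm10 (0.64), a subunit gene of the U7 snRNP that trims histone mRNA, Srrt (0.59), which encodes the cap-binding partner ARS2, Mblac1 (0.47), a nuclease gene of histone mRNA processing, and Cpsf1 (0.41), a cleavage complex gene.

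Genes of histone mRNA decay included 5 that fell and 0 that rose among 17 tested (limma), against 10.2% and 16.8% of all genes, with a median of −0.18. At an unadjusted p under 0.05 in either direction, 6 of the 17 passed, against 44% of all genes. Lsm3 (−0.51), Lsm2 (−0.43) and Lsm5 (−0.37) encode subunits of the Lsm ring, Xrn1 (−0.43) the 5′ to 3′ exonuclease and Upf1 (−0.38) the helicase that starts histone mRNA decay. One of the other kept probes of Xrn1 moved the other way, and Xrn1 and Lsm2 were not called by the mean of their probes. Of these 5 genes, Lsm3 was called under median scaling and the others were not. Eri1, the exonuclease gene that trims the stem-loop, changed by 0.12 and was not called.

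Among 21 genes of histone chaperones and import (median −0.05), 1 fell and 1 rose (4.76% each, against 10.2% and 16.8% of all genes). The gene that fell was Tonsl (−0.33), which encodes a reader of new histones at forks. The gene that rose was Daxx (0.43), which encodes a chaperone of H3.3. Of 12 genes tested that drive or mark S phase, 3 fell (25%, against 10.2% of all genes): E2f2 (−0.69), a transcription factor gene, Tyms (−0.52), thymidylate synthase, and Cdc25a (−0.45), a phosphatase that activates Cdk2. Limma called 0 higher, 5 of the 12 passed an unadjusted p under 0.05 in either direction, against 44% of all genes, and the median was −0.08. Tonsl and Cdc25a were not called under median scaling. Ccne1 changed by 0.13, Cdk2 by −0.02, Pcna by 0.04, Mki67 by −0.01, Ccna2 by 0.25 and Rrm2 by −0.24, none called. The share of cells in S phase was not measured, and its part in the histone changes was not tested.

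**Figure D4:**
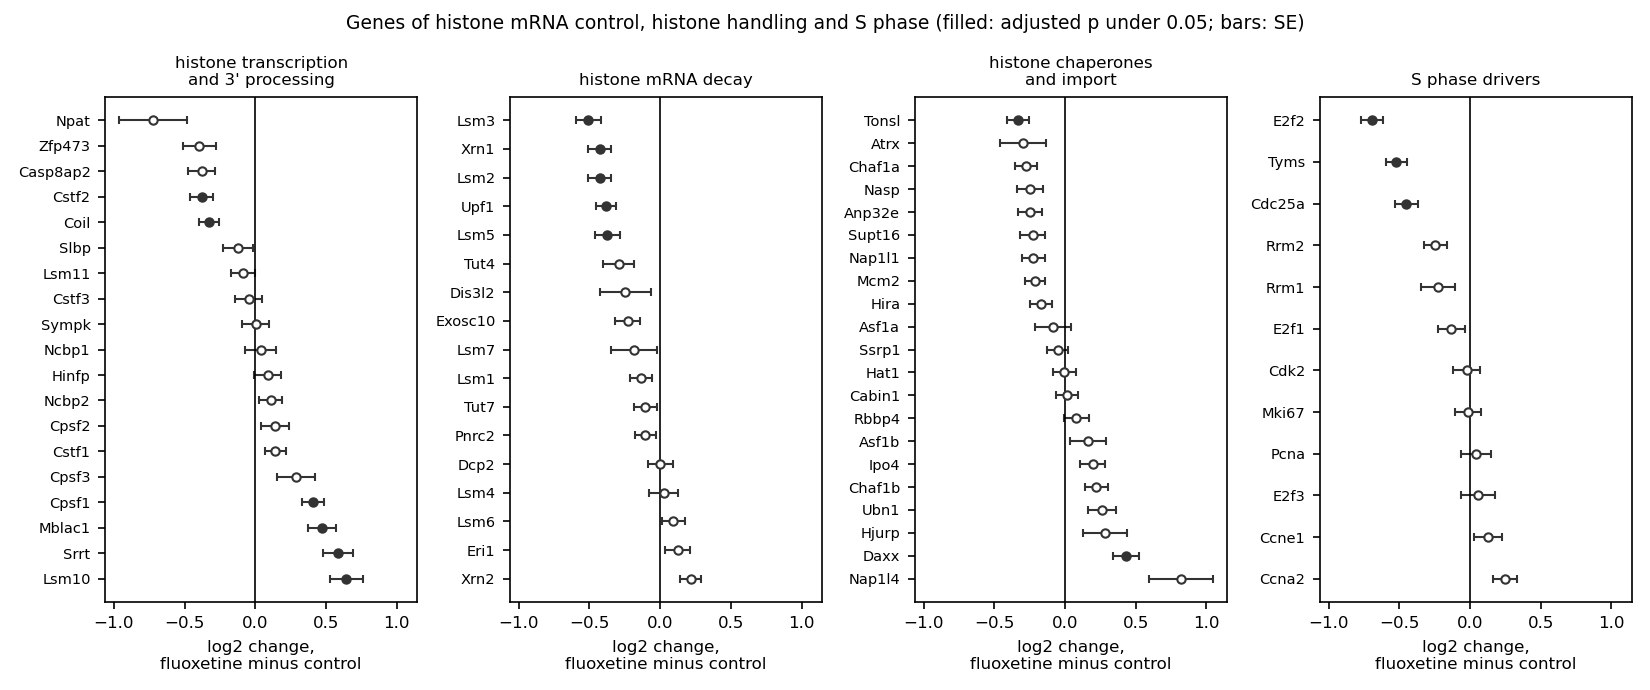
Log2 change (fluoxetine minus control) of genes of histone transcription and 3′ processing, histone mRNA decay, histone chaperones and import, and S phase, each panel 1 list, with bars for the standard error and filled points for adjusted p under 0.05. Filled points lie on both sides of 0 in the first panel, and the 5 filled points of the decay panel lie below 0.

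The labelled cell type was read against markers. Of 11 mesenchymal or sarcoma markers 8 were tested, among them Vim, which read 5.29 and 5.35 with fluoxetine, against 5.63 and 5.11 in control cells, while Col3a1, Thy1 and Pdgfrb were too dim. The collagen gene Col1a2 was called lower (at least 2.38-fold, limma adjusted p = 0.012), being not well above background on either fluoxetine array. Acta2 (−0.64), smooth muscle actin, and Col1a1 (−0.57) were not called, although both fluoxetine arrays read below both control arrays. Summed over the 8 markers, the linear intensity was 138.1 and 131.5 on the fluoxetine arrays and 142.3 and 134.2 on the control arrays, in multiples of the arrays' 75th percentile. Of 10 leukocyte markers 6 were too dim, Ptprc, the pan-leukocyte gene, among them. Cd68 and Cd3e were called higher and Itgam was called lower (−1.96), while further probes of Cd3e and Itgam had the opposite sign. On the same scale the 4 leukocyte markers tested summed to 61.0 and 52.8 on the fluoxetine arrays and 25.5 and 27.8 on the control arrays. Cd68 made up most of this sum, and the other 3 markers summed to 2.47 and 2.58 on the fluoxetine arrays and 5.99 and 5.89 on the control arrays. Of 4 epithelial markers 3 were tested, and Krt8 and Krt18, keratins of simple epithelia, read above Vim on every array. These 3 summed to 185 and 180.1 on the fluoxetine arrays and 210.5 and 223.1 on the control arrays, above the mesenchymal sums. Of 3 endothelial markers 1 was tested, and the part of any other cell type in the histone changes was not tested.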

How the data were processed

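The authors scanned 4 single-colour arrays and read spot intensity using Feature Extraction (version 12.1.0.3, per the file headers). The deposited processed signal is a linear intensity with the background already corrected and no scaling between arrays, as the file headers show. The deposited files also hold 0 or 1 marks, set by that software, for brightness over background, saturation and uneven spots.

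Control and non-uniform spots were left out, spots of a probe were averaged as log2, and the 75th percentile over probes was subtracted on each array. Files name probes by accession, and symbols came from the RefSeq table of GRCm38.p6 (34645 of 56558 probes matched). A probe was kept if either group had it well above background on both of its arrays, and the brightest kept probe stood for its gene. limma 3.58.1 in R 4.3.3 (lmFit, eBayes, group as the only term, Benjamini-Hochberg over 13539 genes) gave the tests, called at adjusted p under 0.05. For 1 gene, the smallest p that exact permutation of 2 arrays against 2 allows is 0.333. For H1f0 the bound replaced each control value with that array's lowest signal marked as above background, unless the probe's own was higher.

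All genes of the class were named, with values per array for those called and the largest change of each class. The members and lists were chosen with earlier results of these data known. On simulated data for this comparison with 13539 genes, 200 of them changed, recovery was 0.749% at a log2 change of 0.5, 42.4% at 1 and 78.6% at 2, with 4.61% of calls false. Alternatives were 2 other scalings, normexp background correction (offset 50, on the median signals, as the planned mean signal column was not used here), 2 filters, 2 ways of choosing probes, an intensity trend, the replicate number as a block and leaving out each array. The numbers give only 2 pairs with no shared source in the labels, and the correlation of same-numbered deviations was −0.12, so the arrays were treated as unpaired.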

Additional observations from a re-analysis of the deposited data

How the results depend on the processing

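The main counts were 3653 genes and 17 histone genes called. With arrays scaled by the median, 6294 genes were called and the histone median was −0.078 in place of −0.29. With no filter on dim probes, 0 genes and 0 histone genes were called by limma (5272 genes and, lower, 21 histone genes at an unadjusted p under 0.05), and with each kept probe tested by itself 7241 probes were called. With the replicate number as a block (replicate block), 1859 genes and 4 histone genes were called, H2ac13, H2bc18, H4c17 and H4f16; with the numbers crossed, an alternative chosen after seeing the data, 2621 genes and 13 histone genes were called. Leaving out 1 array gave 0 to 2660 genes and 0 to 9 histone genes, and the cause of these shifts was not tested, apart from the loss of an array and the larger number of probes adjusted for. H2ac13, H2bc18 and H4c17 were also called without control 1. Quantile normalization, normexp, the filter on all 4 arrays, the mean of probes and the intensity trend gave 18 to 25 histone genes called. The medians of H1, H2A and H4 genes were below 0 in all of these settings, and no called histone gene changed sign. Where an array was left out, the lone array of its group was assumed to vary like the other group. Having 2 arrays per group limits every call, so an uncalled gene is not shown to be unchanged. The simulation changed 200 genes, while 3653 were called here, so it does not give the recovery in these data.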
